A study of Solanum lycopersicum and Solanum pimpinellifolium with 30 samples.

Results

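Sucrose that reaches a tomato fruit through the phloem is cleaved by acid invertase into glucose and fructose, or by sucrose synthase, which uses UDP and yields UDP-glucose and fructose. Sucrose transporters carry the uncleaved sugar across membranes, and ADP-glucose pyrophosphorylase makes the glucosyl donor of starch, which young green fruit store and ripening fruit break down. The values below describe 4 genes of these steps in the pericarp of ripe red fruit: the acid invertase gene AI, the sucrose transporter gene SUT4, the sucrose synthase gene sus3 and AGP-S2, which encodes a subunit of ADP-glucose pyrophosphorylase. The members are all probe sets that the platform annotation of 2007 gives these 4 symbols. There are 5 of them among 10038 tested probe sets, 1 each for AI (Les.2702.1.S1_a_at), sus3 (Les.157.1.S1_at) and AGP-S2 (Les.79.1.S1_a_at) and 2 for SUT4 (Les.255.1.A1_at and Les.255.2.S1_at). RefSeq's genes of the tomato assembly SLM_r2.1 hold all 4, AI on chromosome 3 with the synonyms TAI and TIV1, SUT4 on chromosome 4, and sus3 and AGP-S2 on chromosome 7, the last with the synonym agpL2. No sequences of these genes were used here.

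The study grew 10 tomato cultivars in 1 field trial and hybridised 3 biological replicates of each to one-colour Affymetrix arrays, 30 in all. The cultivars are the 9 Andean landraces 3806, 3815, 3836, 3842, 549, 557, 560, 571 and 572 of Solanum lycopersicum, and the wild currant tomato Solanum pimpinellifolium LA1589. Each accession had 18 plants in 3 plots of 6, the fruit was picked at the mature red stage, and the pericarp was freed of skin, locules and seeds. All cultivars were otherwise untreated, and a single accession stands for the wild species.

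Values are log2 signals after quantile normalisation between arrays, and ± is the SD of 3 arrays unless another error is named. Levels of different genes cannot be set against each other on this scale, since each probe set binds with its own strength. In pericarp tissue less RNA per cell and fewer cells of a type cannot be told apart. The background of an array, the percentile 95 of its 63 probe sets for foreign reporter sequences, ran from 0.37 to 2.41. The share of probe sets above it ran as a cultivar mean from 48.5% in 557 to 72.0% in 3806, and the mean of the spiked bacterial controls, as deposited, from 8.29 ± 0.23 in 571 to 10.37 ± 0.25 in 557. The ripe fruit genes E8, PG2, Psy1, RIN, TDR4, ACS2 and 2A11 lay above background in all 30 arrays. TAS14, listed here for seed, did so in 7 arrays, and LE16 and TSW12, listed for epidermis, in 4 and 1. Whether seed or skin was left in the samples was not tested. AI, sus3 and AGP-S2 were above background in all 30 arrays. The first SUT4 probe set was above it in 16 arrays and the second in 9.

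AI, which cleaves sucrose in the vacuole and is known to be induced in ripening tomato, had its highest level in 3806. The 3 arrays of 3806 read 11.19, 11.35 and 11.09, and no array of another landrace exceeded the lowest of them. LA1589 followed with 9.94, 11.64 and 9.94, so that replicate 2 stood well above its other arrays and was the highest of all 30. Landrace 571 was the most uneven, with 10.42, 11.09 and 8.29. Its replicate 2 matched the lowest array of 3806 and its replicate 3 lay among the low landraces. The order of the top arrays depended on the normalisation. As deposited, replicate 2 of 3806 (11.41) was above replicate 2 of LA1589 (11.32), and replicate 2 of 571 (11.17) above replicate 3 of 3806 (10.97).

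In the middle of the order, 572 read 9.09, 8.96 and 9.88, and 557 read 9.54, 8.82 and 9.40. The 3815 arrays read 9.92, 8.25 and 8.22, with 1 array apart from the others, and the 3836 arrays 9.27, 8.29 and 8.65. These 4 landraces overlapped one another. The lowest AI signals were those of 3842 with 7.69, 8.77 and 9.26, of 549 with 8.86, 7.66 and 8.84, and of 560 with 7.80, 7.85 and 8.72. All 9 arrays of these 3 landraces lay below every array of 3806 and of LA1589. The same held for all arrays of 572, 557, 3815 and 3836, so it does not set the lowest landraces apart.

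**Figure D1:**
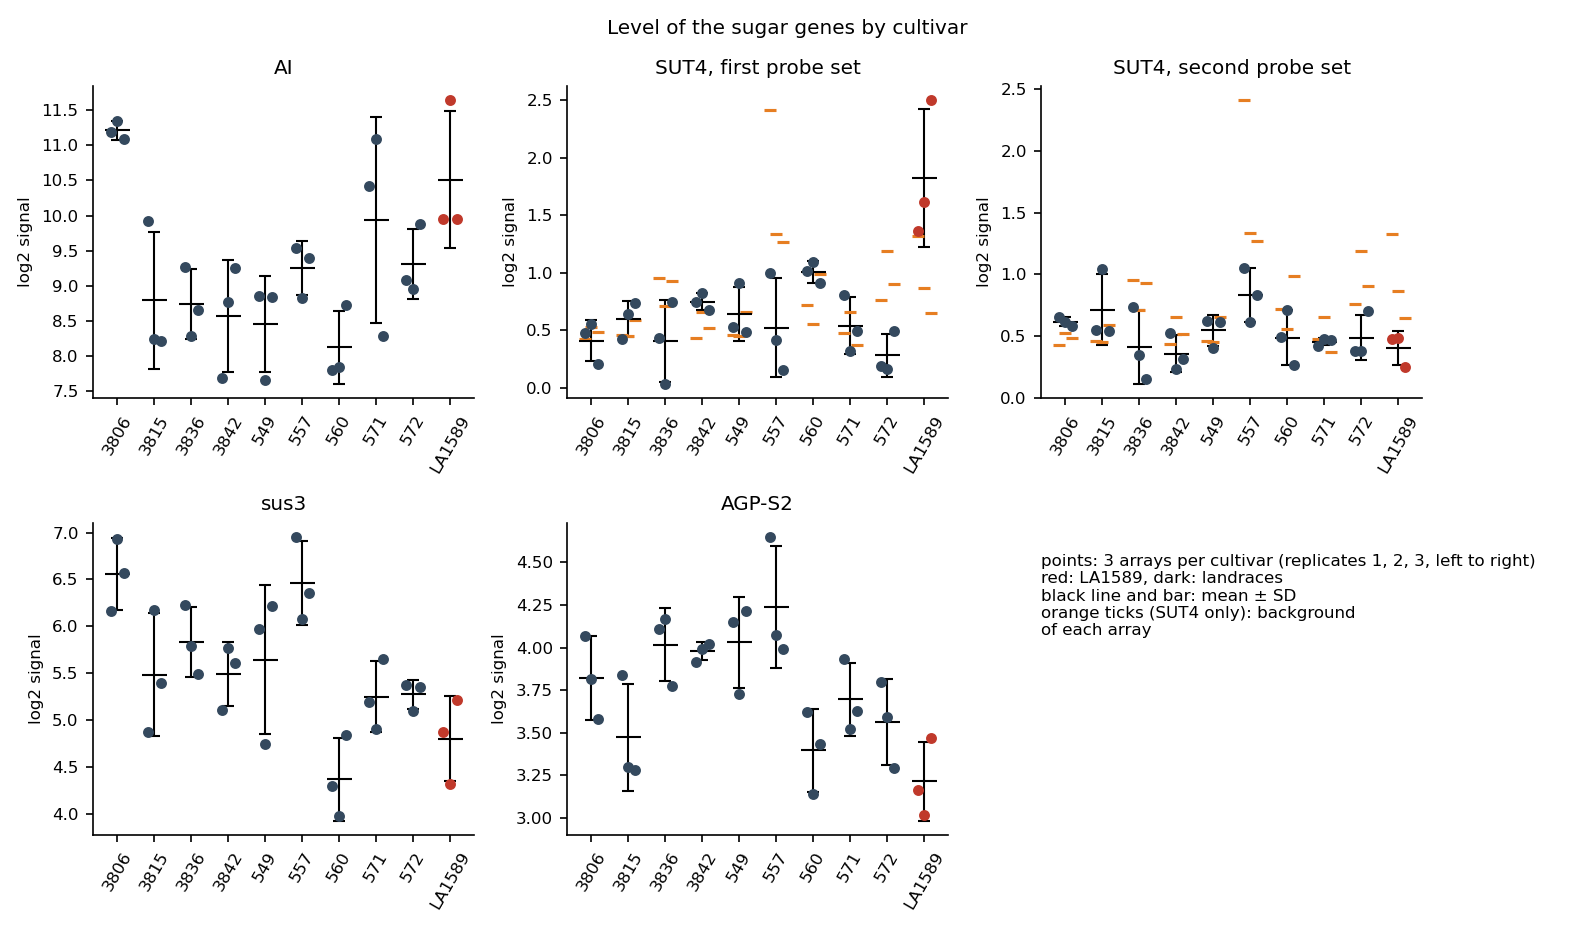
Log2 signal of AI, both SUT4 probe sets, sus3 and AGP-S2 (vertical axes) in each array of the 10 cultivars (horizontal axis), with the mean ± SD of 3 arrays and, for SUT4, the background of each array. AI is high in 3806 and LA1589, SUT4 stands apart in LA1589 on the first probe set, and sus3 and AGP-S2 are low in 560 and LA1589.

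The 9 landrace means of AI ran from 8.12 ± 0.52 in 560 to 11.21 ± 0.13 in 3806, a range of 3.09 or 8.50-fold (limma moderated F test on 27 arrays, Benjamini-Hochberg adjusted p = 0.00403). A test passed where its adjusted p was under 0.05. The F test called 39.1% of all tested probe sets, so that passing it does not set a gene apart. The AI range was wider than that of 97.5% of probe sets, and its pooled SD within cultivars, 0.78, was wider than that of 97.0%. The range rested on 1 landrace. Without 3806 it was 1.81 and the adjusted p of the limma F test was 0.231.

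Between pairs of cultivars 10 of the 45 AI differences passed, with p-values adjusted over all probe sets and all pairs together. Over all probe sets 9.06% of these comparisons passed. In 7 of the 10 pairs 3806 was the higher cultivar, against every landrace except 571, by 1.90 (572) to 3.09 (560). LA1589 was the higher in the other 3, against 3842, 549 and 560, by 1.94 to 2.39. No pair of neighbours in the order of AI levels passed. The step from 3806 to LA1589 was 0.70 ± 0.59 (SE, adjusted p = 0.577) and that from LA1589 to 571 was 0.57 ± 0.59 (SE, adjusted p = 0.675). Without replicate 3 of 571 the count of AI pairs was 17, and it was 5 with a covariate for the spiked controls.

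SUT4, which encodes a sucrose transporter of the SUT4 type, was read at the dim end of the arrays. Its first probe set gave 1.36, 1.62 and 2.50 in LA1589, against backgrounds of 1.32, 0.87 and 0.65 in the same arrays. All 3 LA1589 arrays lay above every landrace array, of which the highest, in 560, read 1.10. The 27 landrace arrays ran from 0.03 to 1.10 with a median of 0.53, and 13 of them were above background.

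By cultivar the SUT4 means of the landraces ran from 0.28 ± 0.18 in 572 to 1.01 ± 0.09 in 560. In 560 the arrays read 1.02, 1.10 and 0.91, and in 3842 they read 0.75, 0.82 and 0.68, all above background in 3842 and 2 of 3 above it in 560. In 557, 3836 and 572 none of the 3 arrays was above background, so that their level is known only to lie under the mean background of their arrays, 1.67 in 557, 0.87 in 3836 and 0.95 in 572. The landrace means of SUT4 did not pass the F test (adjusted p = 0.136 by limma), and their range of 0.73 has an unmeasured level at its low end. It passed without landrace 557 (adjusted p = 0.0450) or without only its replicate 1 (adjusted p = 0.0359), the array with the highest background, and with array weights (adjusted p = 0.00248).

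All 9 SUT4 pairs that passed were those of LA1589 with a landrace, and 0 of the 36 pairs of landraces passed. Against the 6 landraces with arrays above background, LA1589 was higher by 0.82 (560) to 1.41 (3806). Of these landraces only 3842 had all 3 arrays above background. With values under background raised to it, the differences were 0.79 against 560 and 1.32 against 3806. Against 557, 3836 and 572 only a bound can be given, from landrace values raised to the background of their arrays. LA1589 was at least 1.95-fold higher than 3836 and at least 1.83-fold higher than 572. The bound against 557 was 1.11-fold, and with all values so raised that pair did not pass (limma adjusted p = 0.752), while the other 8 did. The step from LA1589 to 560, 0.82 ± 0.24 (SE, adjusted p = 0.0346), was the only difference between neighbours that passed in any of the 4 genes. The second SUT4 probe set did not show this. It read 0.48, 0.48 and 0.25 in LA1589, each below the background of its array, and its landrace arrays ran from 0.15 to 1.05. The second probe set differed by -0.14 between LA1589 and the landraces (limma adjusted p = 0.534) and passed in 0 of 45 pairs. With 9 of 30 arrays above background it gives no usable level, and the LA1589 signal of SUT4 rests on the first probe set alone.

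sus3 encodes sucrose synthase, which cleaves sucrose reversibly and is known for supplying sugar nucleotides to growing sink tissue. Its highest signals came from 3806 with 6.16, 6.93 and 6.57 and from 557 with 6.96, 6.08 and 6.35. The arrays of these landraces overlapped, and their means differed by 0.09 ± 0.37 (SE, adjusted p = 0.944). 3836 read 6.23, 5.79 and 5.49, 549 read 5.97, 4.74 and 6.22, and 3842 read 5.11, 5.77 and 5.61. Replicate 2 of 549 lay well below the other arrays of that landrace.

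Below these, the 3815 arrays read 4.87, 6.18 and 5.40, the 572 arrays 5.37, 5.10 and 5.36, and the 571 arrays 5.20, 4.90 and 5.65. LA1589 had 4.87, 4.32 and 5.21 and 560 had 4.29, 3.97 and 4.84. The arrays of LA1589 and 560 overlapped each other, and all 6 lay below every sus3 array of 3806, 557 and 3836.

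The landrace means of sus3 ran from 4.37 ± 0.44 in 560 to 6.55 ± 0.38 in 3806, a range of 2.18 or 4.55-fold (limma F test adjusted p = 0.00171), wider than that of 92.4% of probe sets. This range passed with each landrace or array left out in turn. With 3806 and 560 left out together, an alternative chosen after the data were seen, it was 1.21 (adjusted p = 0.152). Of the 45 pairs 10 passed, 8 of them between landraces. 3806 and 557 were each higher than 572, 571, LA1589 and 560, and 3836 and 549 were higher than 560. The 8 pairs that hold 3806 or 557 differed by 1.19 to 2.18. Without replicate 2 of 549 the count of sus3 pairs was 16. Neighbours in the order did not pass (steps from 0.01 to 0.63, adjusted p from 0.348 to 0.994).

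**Figure D2:**
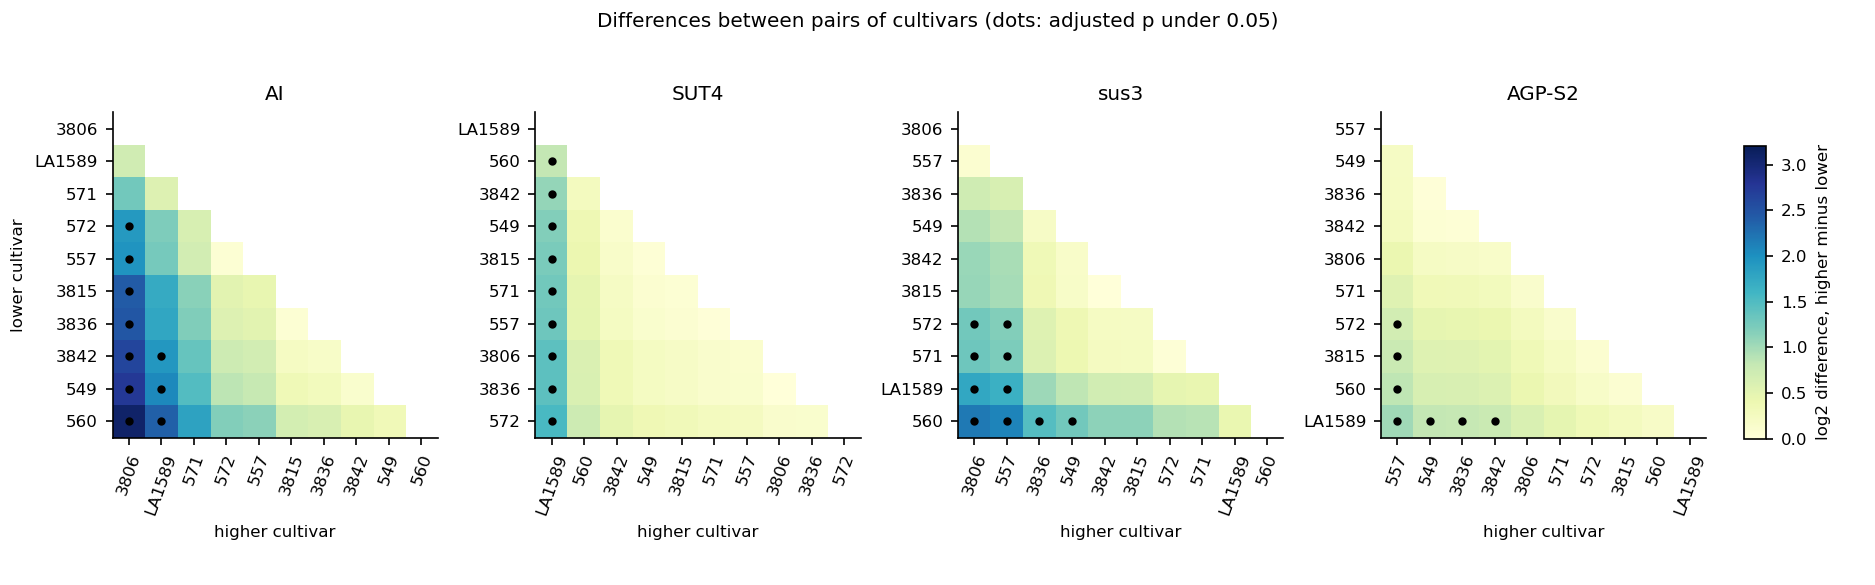
Log2 difference between every pair of the 10 cultivars for AI, SUT4 (first probe set), sus3 and AGP-S2, with cultivars in order of level along both axes and colour for the difference of the higher minus the lower cultivar. Dots mark pairs with adjusted p under 0.05: 10 for AI, most of them with 3806, 9 for SUT4, all with LA1589 and 3 of them against landraces with no array above background, 10 for sus3 and 7 for AGP-S2.

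AGP-S2, of the starch route, varied least of the 3 genes that were above background throughout. 557 read 4.65, 4.07 and 3.99, 549 read 4.15, 3.73 and 4.22, and 3836 read 4.11, 4.17 and 3.77. The arrays of 3842, at 3.92, 3.99 and 4.02, lay closest together. In 3806 the values were 4.07, 3.82 and 3.58, in 571 they were 3.93, 3.52 and 3.63, and in 572 they were 3.80, 3.59 and 3.29.

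At the low end 3815 had 3.84, 3.30 and 3.28 for AGP-S2, 560 had 3.62, 3.14 and 3.43, and LA1589 had 3.16, 3.02 and 3.47. The arrays of these 3 cultivars overlapped. Of the 27 landrace arrays 22 lay above all 3 LA1589 arrays, and all 9 landrace means lay above the LA1589 mean.

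The landrace means of AGP-S2 ran from 3.40 ± 0.24 in 560 to 4.24 ± 0.36 in 557, a range of 0.84 or 1.79-fold (limma F test adjusted p = 0.0223). That is less than the median range of all tested probe sets, 0.89, and its pooled SD of 0.25 was also below their median of 0.33. Without landrace 560 the range was 0.77 and did not pass (adjusted p = 0.0767), and with an intensity trend and robust prior the adjusted p was 0.0525. Of the 45 pairs 7 passed. 557 was higher than 572, 3815, 560 and LA1589 by 0.68 to 1.02, and 549, 3836 and 3842 were higher than LA1589 by 0.76 to 0.82. No neighbours in the order passed (steps from 0.01 to 0.21). The count of AGP-S2 pairs was 2 with a covariate for the spiked controls, 4 without replicate 2 of LA1589, 11 with the replicate number as a block and 13 with array weights. The ends of the landrace range depended on the normalisation. As deposited, 549 was highest and 572 lowest, with a range of 0.63 (limma F test adjusted p = 0.0344). With median centring 3836 was highest and 560 lowest, with a range of 0.65 (limma F test adjusted p = 0.0175).

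The next comparison sets the wild accession against the 9 landraces, each with equal weight, in a limma fit of all 30 arrays. The 4 genes were chosen with this contrast already known, so their passing is not independent support. Over all probe sets 8.58% were higher in LA1589 and 6.96% lower. Of the 4 genes AI and SUT4 were higher in LA1589 and sus3 and AGP-S2 lower.

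AI was higher by 1.36 ± 0.44 (SE, limma adjusted p = 0.0371), with 10.51 ± 0.98 in LA1589 against a landrace mean of 9.15. The LA1589 mean lay above 8 landrace means and below that of 3806, so its level was within the landraces. The difference leaned on replicate 2 of LA1589. Without this array it was 0.79 (adjusted p = 0.333), and without replicate 1 it was 1.64 (adjusted p = 0.0565).

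SUT4 was higher by 1.25 ± 0.18 (SE, limma adjusted p = 2.54e-05) on its first probe set, with 1.83 ± 0.60 against 0.57. With landrace values raised to the background of their arrays where they lay under it, this is at least 1.95-fold. Each of 51 other settings kept the call, with differences from 0.55 to 1.48 and the highest adjusted p at 0.0335. The lowest difference, 0.55, was that of the mean of both probe sets. Without replicate 3 of LA1589 it was 0.91.

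sus3 was lower by 0.79 on the log2 scale, with 4.80 ± 0.45 in LA1589 against 5.60 (limma difference -0.79 ± 0.27, SE, adjusted p = 0.0488). The call sat at the threshold: of 30 fits that each left out 1 array, 19 did not pass. Without replicate 2 of LA1589 the difference was -0.55 (adjusted p = 0.285), and a covariate for the spiked controls made it -1.20 (adjusted p = 0.0026). The LA1589 mean of sus3 lay between those of 571 and 560.

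AGP-S2 was lower in LA1589, with 3.22 ± 0.23 against 3.80 (difference -0.59 ± 0.16, SE, limma adjusted p = 0.0119), which is 1.5-fold. Without replicate 1 of LA1589 the difference was -0.56 (adjusted p = 0.0730) and without replicate 2 it was -0.49 (adjusted p = 0.0882).

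With 1 mean per cultivar as the observation, the landraces' own spread being the error, the adjusted p was 0.700 for AI, 0.771 for sus3 and 0.527 for AGP-S2, while SUT4 passed. With cultivar as a random effect it was 0.513, 0.593 and 0.311, and SUT4 passed again. These fits treat cultivars as the sampled units, so a difference of the wild accession is measured against how far landraces differ from each other.

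Some markers of ripening also differed in LA1589, in both directions, in a contrast that 15.5% of all probe sets passed. Of 7 ripe fruit genes, 2 were higher in LA1589, the transcription factor gene RIN (0.71, limma adjusted p = 0.00795) and the ACC synthase gene ACS2 (2.53, adjusted p = 0.00659). The ethylene-responsive gene E8 (-2.53, adjusted p = 0.000231) and TDR4 (-0.90, adjusted p = 0.000933) were lower. PG2, Psy1 and 2A11 did not pass (from -0.65 to -0.44), nor did any of 6 green tissue genes (from -1.29 to 0.31). The part of ripening stage in the LA1589 differences of AI, SUT4, sus3 and AGP-S2 was not tested.

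**Figure D3:**
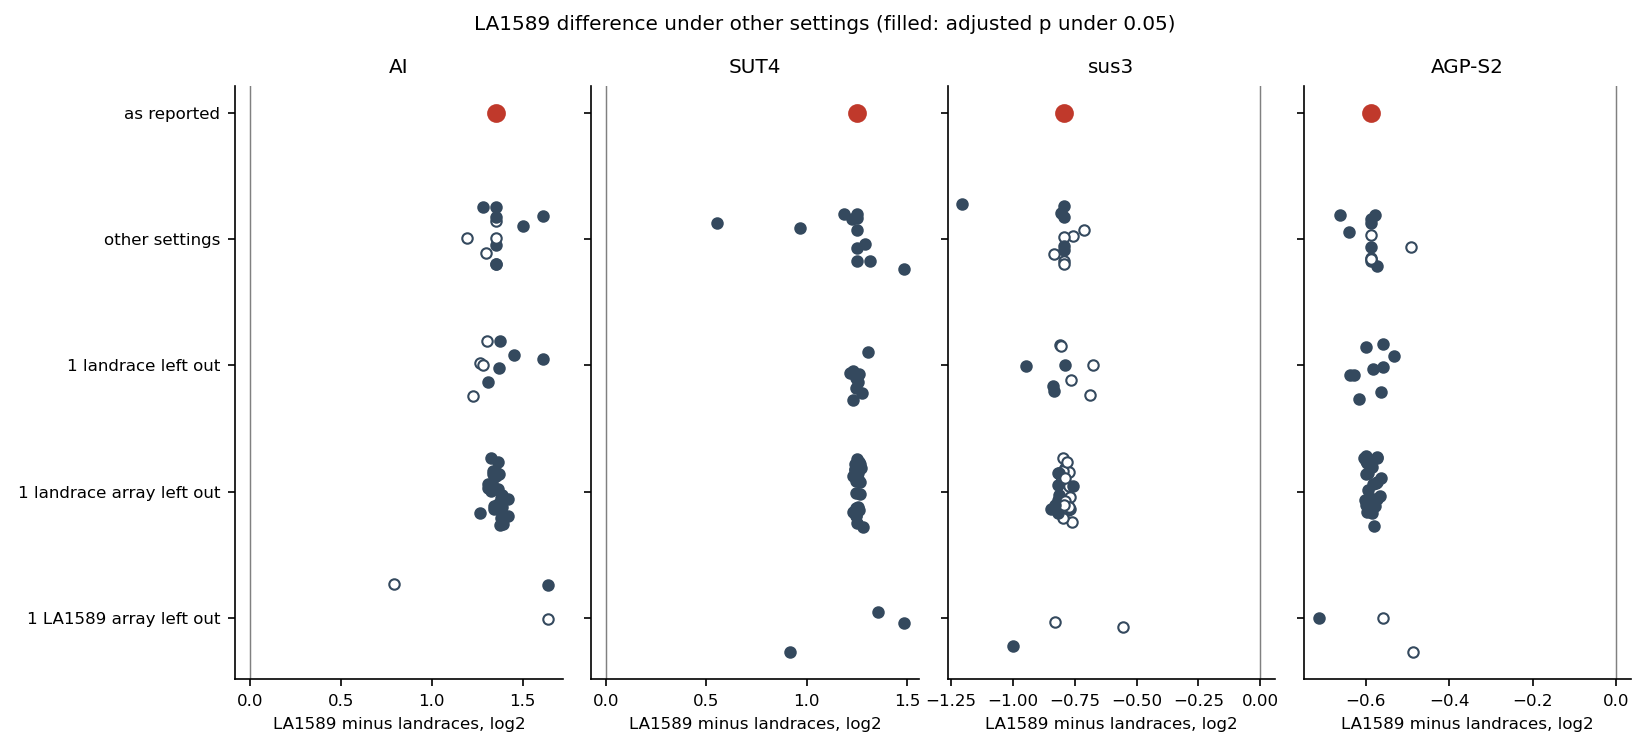
Difference of LA1589 minus the landraces on the log2 scale (horizontal axis) for each of the 4 genes, as reported (red) and under other settings (dark points, grouped by kind of setting on the vertical axis). Filled points have adjusted p under 0.05, which holds for all SUT4 points, while sus3 has open points in every kind of other setting.

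The members did not share 1 pattern over the cultivars. sus3 and AGP-S2 had like orders, with Pearson r = 0.76 and Spearman rho = 0.81 over the 10 cultivar means, r = 0.72 over the 9 landraces and r = 0.87 without 3806 and 560, the 2 means farthest from the sus3 median. Within cultivars, over the deviations of the 30 arrays from their cultivar means, r was 0.32. AI and sus3 were both highest in 3806 and lowest in 560, with r = 0.60 over the landraces, r = 0.34 with LA1589 included, where AI was high and sus3 low, and r = 0.32 without LA1589 and 3806. AI and AGP-S2 had r = -0.19 over all 10 means and 0.08 without LA1589 and 3806. AI and SUT4 had r = 0.15 over all 10 means, -0.59 over the landraces and -0.65 without LA1589 and 3806. SUT4 ran against sus3 and AGP-S2 (r = -0.59 and -0.60), and without 560 and LA1589 these values were -0.16 and 0.26. The 3 relations with SUT4 include the 3 landraces in which it had no measured level. All 6 relations are descriptions over 10 points that share their arrays and their normalisation. Over the cultivar means the 4 genes had r from -0.04 to 0.18 with the mean of the spiked controls. Over the 9 landraces these values were -0.13 for AI, -0.50 for SUT4, 0.28 for sus3 and 0.22 for AGP-S2.

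**Figure D4:**
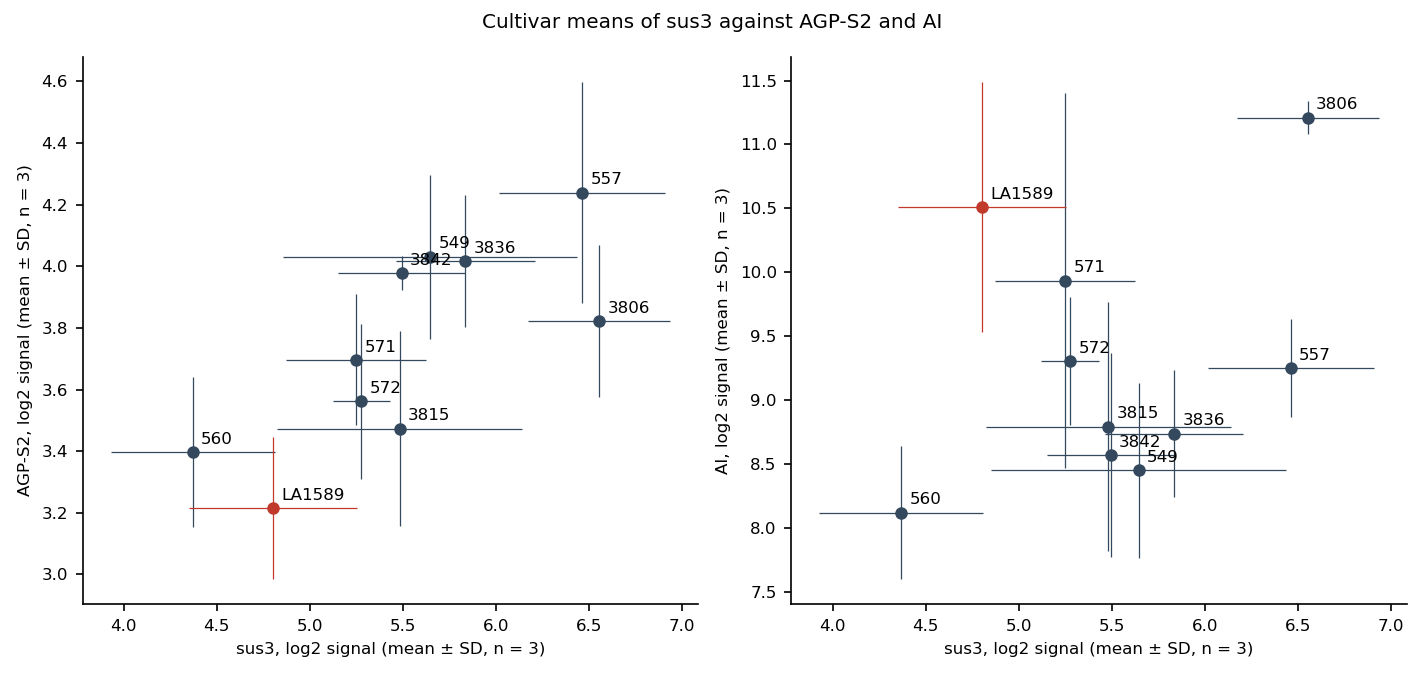
Cultivar means of AGP-S2 (left) and AI (right) against those of sus3, as log2 signals with the SD of 3 arrays as bars. AGP-S2 climbs with sus3 from 560 and LA1589 to 557, while for AI the landraces 3806 and 560 mark the ends and LA1589 combines a high AI with a low sus3 level.

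On the quantile normalised values landrace 560 was the lowest landrace for AI, sus3 and AGP-S2. It was also the lowest for SPS, which encodes sucrose phosphate synthase, the enzyme that rebuilds sucrose. For AGP-S2 the step from 3815 to 560 was 0.08 ± 0.21 (SE, limma adjusted p = 0.914), and with the values as deposited 572 was lowest. For AI the step from 549 to 560 was 0.33 ± 0.59 (SE, limma adjusted p = 0.847). In 560 SPS stood at 6.06 ± 0.40, against 7.15 in 3842, the next lowest landrace, and 7.91 ± 0.37 in 3836, the highest. Levels of ripening and green tissue markers in 560 are given beside these. Phytoene synthase Psy1 was at its lowest of all cultivars there (5.36 ± 0.28) and TDR4, a MADS-box gene of ripening, at its lowest among landraces (7.32 ± 0.02), whereas PG2 (10.34 ± 0.48) and 2A11 (12.04 ± 0.20) ranked 3 and 2 of 10 from the highest, and E8, RIN and ACS2 ranked 6, 8 and 3. The green tissue genes PETE (8.33 ± 0.14) and PSBR (9.99 ± 0.31) were at their highest in 560, and all 6 measured genes of this kind ranked from 1 to 4 there. 3806, the highest for AI and sus3, ranked from 6 to 9 for these 6 genes. High green tissue genes were not particular to 560. In 549 PSBO (7.33 ± 0.53), CAB4 (3.89 ± 0.26), CAB6A (2.09 ± 1.66) and LOC543978, or psaD, (4.77 ± 0.76) were higher than in 560, while PSBR and PETE were lower. Landrace 549 had AGP-S2 at 4.03 ± 0.27, sus3 at 5.65 ± 0.79 and AI at 8.45 ± 0.69. Of the ripe fruit genes 3806 ranked 1 for TDR4, 2 for E8, 4 for Psy1, 5 for 2A11, 6 for PG2, 7 for RIN and 10 for ACS2. The part of ripening stage or green tissue in the levels of AI, sus3 and AGP-S2 was not tested.

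Other genes of sugar and starch metabolism were searched by 90 symbols. These matched 27 measured genes, but the symbols TMT, tst and SDH also stand for enzymes of other routes and the reference gives no description, which leaves 24 genes. Of these 10 lay above background in under 15 arrays. In LA1589 2 of the 24 were higher and 2 lower, which are the 4 members, and 20 did not pass. Their median difference was 0.17, against 0.00 over all probe sets. The list was chosen with earlier results of these data known.

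No other invertase gene passed in LA1589. Wiv-1, LIN7, LIN8, LOC543961, FRK2 and the AgpL genes are named in this comparison for their enzymes, after their values were seen. lin5, a cell wall invertase gene known from a fruit sugar locus, had 2.61 ± 1.71 against 1.09 (difference 1.53 ± 0.70, SE, limma adjusted p = 0.152), and the invertase genes Wiv-1, LIN7 and LIN8 were above background in 1 array each. A further sucrose synthase gene, LOC543961 with the synonyms SUS1 and sus2, was above background in 14 arrays (difference -0.27, adjusted p = 0.793). Its landrace means did not pass the F test (adjusted p = 0.107), and in 560 none of its arrays was above background. Among the fructokinase genes, whose enzymes phosphorylate the fructose that invertase and sucrose synthase release, FRK1 differed by 0.41 (adjusted p = 0.378), FRK2 by 0.28 (0.61) and FRK3 by -0.12 (0.786). The AgpL1 and AGPL3 genes of the same enzyme as AGP-S2 were each above background in 1 array, so AGP-S2 was the member of the list for that enzyme with a usable level. tst was lower by 0.61 on the log2 scale (difference -0.61, adjusted p = 0.032).

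Among the landraces 7 of the 24 genes passed the F test (29.2%, against 39.1% of all probe sets), with a median range of 0.81 against 0.89. Besides AI, sus3 and AGP-S2 these were SPS (range 1.85, limma adjusted p = 0.000144), FRK2 (1.65, from 4.83 ± 0.15 in 571 to 6.47 ± 0.41 in 572, adjusted p = 0.00788), the protein kinase gene SNF1 (1.13, highest in 557, adjusted p = 0.0172) and the hexokinase gene hxk1 (highest in 3815 at 1.59 ± 0.38, adjusted p = 0.0135). No array of 557 or 3836 was above background for hxk1, so its range has no measured low end. lin5 had a range of 2.25 but did not pass (adjusted p = 0.353). The 24 genes include the 4 members, which were chosen with earlier results known. Without the members 4 of 20 genes passed (20%), with a median range of 0.76. Of the symbols with a doubtful match TMT (1.92, adjusted p = 0.00324) and SDH (1.27, adjusted p = 0.00329) passed. AI, sus3, AGP-S2 and SPS had their lowest landrace mean in 560, and AI and sus3 their highest in 3806. The share of all probe sets with these ends was not counted, so the ends cannot be called particular to the sugar genes. Without 3806 and 560 the F test called 2408 probe sets in place of 3921.

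**Figure D5:**
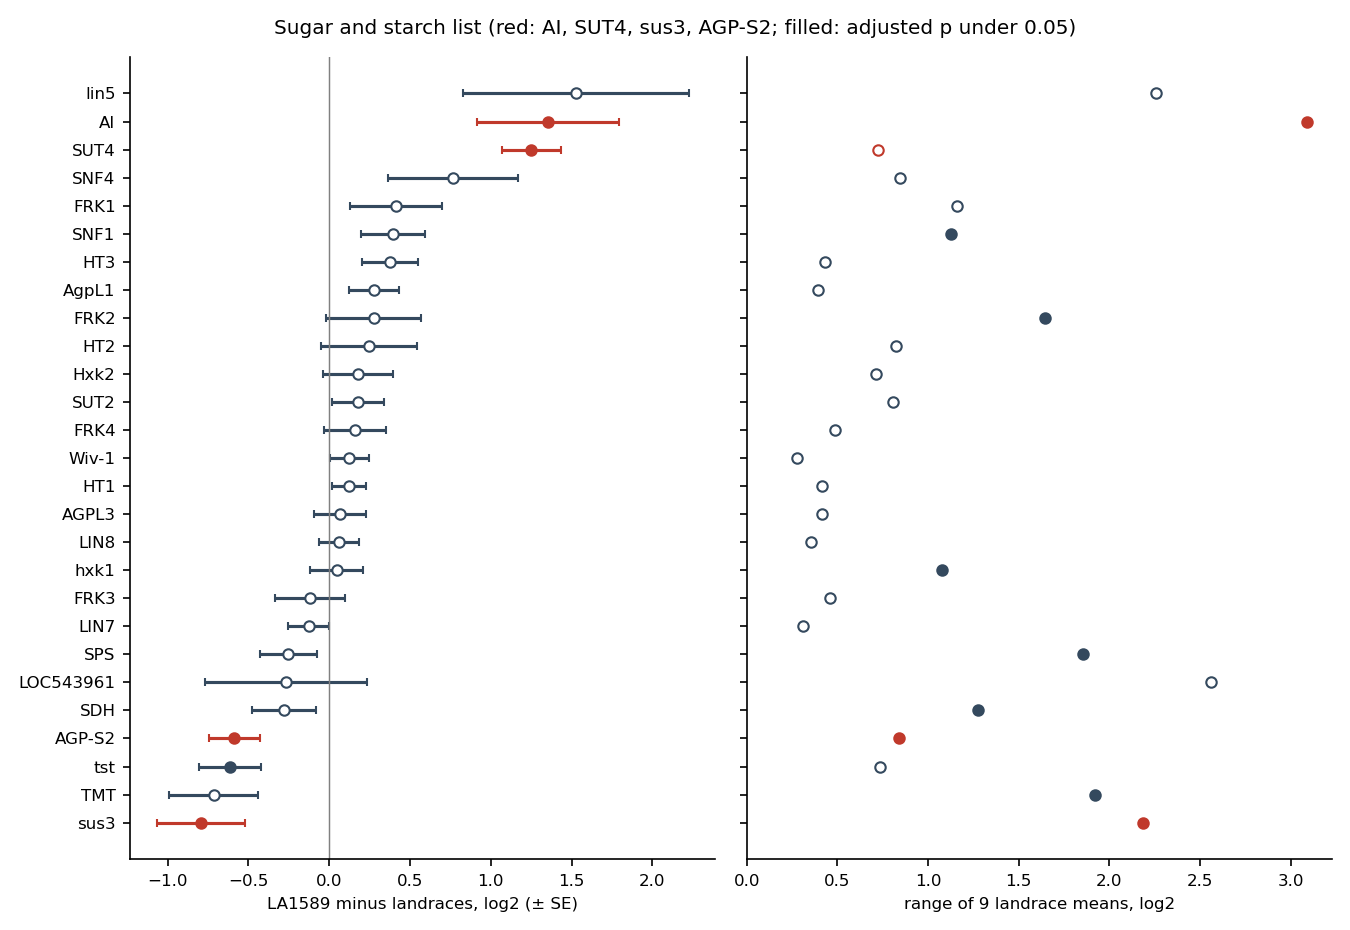
Difference of LA1589 minus the landraces with its SE (left) and range of the 9 landrace means (right), both on the log2 scale, for the 27 matched genes of the sugar and starch list, in order of the difference. AI, SUT4, sus3 and AGP-S2 are in red and filled points have adjusted p under 0.05, which outside the 4 members holds only for tst on the left.

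The genes whose 10 cultivar means were most like those of each member were sought among 585 named probe sets above background in at least 15 arrays, by Pearson r as a description. For AI these were tft10, a 14-3-3 protein gene (r = 0.79), FPPS1, a farnesyl diphosphate synthase gene (0.79), and PYD1A (0.78), and the most opposed was SK (-0.78). For SUT4 they were the chitinase gene CHI14 (0.93), the proline transporter gene ProT2 (0.92) and LOC543632, annotated as STC (0.91), with the pectin methylesterase gene PE1 the most opposed (-0.93). The SUT4 means differ mainly between LA1589 and the landraces, so genes picked by this likeness differ there too by choice. For sus3 they were LOC543861 (0.87), ER66, a gene first found as induced by ethylene (0.86), and LOC544234 (0.83), with LOC544263 at -0.89. For AGP-S2 they were HDS, of the plastid isoprenoid route (0.91), the malic enzyme gene ME2 (0.86) and DIG3 (0.85), with the metallothionein gene LEMT1 at -0.86.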

How the data were processed

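Per the labels, Trizol RNA of ripe pericarp was turned into biotinylated cRNA by the usual Affymetrix protocol. The deposited table holds log2 values for 10209 probe sets. Their normalisation by the authors is not given in the sources used here. Base 2 was assumed, since the spiked controls rose by a median of 0.893 per doubling of their standard amount. Array medians of the deposited values differed by up to 0.50, so quantile normalisation was applied. The tests left out 171 control probe sets, of which 108 were the maker's and 63 foreign reporters. Of 909 probe sets with a gene identifier 885 matched the reference table.

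R 4.3.3 with limma 3.58.1 and statmod 1.5.0 fitted 1 mean for each cultivar with moderated variances. The two-sided tests, with Benjamini-Hochberg adjustment over all probe sets and a threshold of 0.05, were LA1589 against the mean of the landraces and all 45 pairs (30 arrays, 20 residual degrees of freedom), and the moderated F test (27 arrays, 18). The fits were tested on simulated data. Figures used Python 3.11.15 with matplotlib 3.10.9. Arrays give no counts, so their number limits the precision. Named list genes were those past the LA1589 contrast, the 6 largest ranges past the F test, and 3 of highest level past neither. The best-measured probe set stood for a gene. The members and lists were chosen with earlier results of these data known. Alternatives were other scalings and filters, array weights, a trend, the replicate number or the spiked controls in the model, cultivar-level fits, and each array or landrace left out.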

Additional observations from a re-analysis of the deposited data

How the results depend on the processing

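In 51 other settings no LA1589 difference of AI, sus3, AGP-S2 or the first SUT4 probe set changed direction. Ranges have no sign, but the highest landrace for AGP-S2 changed from 557 to 549 with the values as deposited and to 3836 with median centring. With the values as deposited AI in LA1589 differed by 1.19 (not past the threshold), and with median centring sus3 by -0.71 (likewise), while the F test then called 6074 probe sets. With array weights the LA1589 differences of AI (1.30), sus3 (-0.76) and AGP-S2 (-0.49) lost the threshold, the SUT4 range (0.76) passed, and AGP-S2 had 13 pairs. An intensity trend together with a robust prior ended the call of the AGP-S2 range (0.84). Same-numbered arrays of different cultivars had deviations with correlations from -0.28 to 0.36 (median -0.01), so the replicate number was not taken to pair arrays. With the replicate block the sus3 difference (-0.79) did not pass, AGP-S2 had 11 pairs, and 1543 probe sets passed in LA1589. With the spiked controls as a covariate AI had 5 pairs and AGP-S2 had 2. With 1 mean per cultivar or cultivar as a random effect, AI (1.36), sus3 (-0.79) and AGP-S2 (-0.59) did not pass, and 111 and 228 probe sets passed in LA1589 in place of 1560. Without 1 landrace AI in LA1589 did not pass for 549 (1.27), 560 (1.23), 3836 (1.30) and 3842 (1.28), nor sus3 for 557 (-0.69), 3806 (-0.68), 3836 (-0.77) and 3842 (-0.81). The AGP-S2 range did not pass without 560 (0.77), nor the AI range without 3806 (1.81), and the SUT4 range passed without 557 (0.73). In settings added after the data were seen, raising values to the background of their array let the SUT4 range pass (1.17, 15 pairs, 8179 probe sets in the F test). Raised values are the backgrounds themselves, which differed between arrays, so this range is not one of measured levels. Leaving out 3806 and 560 together ended the calls of the sus3 difference (-0.83) and of the ranges of AI (1.48), sus3 (1.21) and AGP-S2 (0.77), with 2408 probe sets in the F test.

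With 1 array left out at a time, the LA1589 difference ran from 0.79 to 1.64 for AI, 0.91 to 1.48 for SUT4, -1.0 to -0.55 for sus3 and -0.71 to -0.49 for AGP-S2, and the landrace range from 2.92 to 3.39, 0.67 to 0.83, 1.99 to 2.42 and 0.64 to 0.97. The pairs that passed ran from 8 to 17, 8 to 10, 7 to 16 and 4 to 10, and the probe sets called from 888 to 1774 in LA1589 and from 3469 to 4176 in the F test. The second SUT4 probe set turned to 0.030 with median centring and 0.13 with values raised to background, and FRK3 to 0.073 with the spiked controls. Over single arrays left out, FRK3 ran from -0.24 to 0.094, the latter without replicate 3 of LA1589. None of these turned values had passed. The causes of these changes were not tested. SUT4 is limited by its signal over background, and its landrace levels cannot be ordered.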
